A study of Mus musculus with 5 samples.

Results

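The insulin and insulin-like growth factor (IGF) signalling genes considered here were 10 named genes, all present among the 14880 genes that passed the filter on low counts. They are the ligand Igf1, the receptors Igf1r and Insr, the docking proteins Irs1 and Irs2, and the IGF binding proteins Igfbp3, Igfbp4, Igfbp5, Igfbp6 and Igfbp7. They were chosen by name, with no measured value in the rule, although earlier results of these data were known when they were chosen. RNA was sequenced from hearts of C57BL6/J mice at postnatal day 2 (PN2), in 3 pools of Charme WT and 2 pools of Charme KO littermates. Charme KO mice carry a polyadenylation signal inserted in the locus of Charme, a long non-coding RNA of striated muscle, and the Charme WT mice do not. Each Charme WT pool held 9 hearts and each Charme KO pool 3 hearts, so genotype and pool size cannot be told apart here. The comparison asked how the cardiac level of each gene differed when Charme was disrupted.

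Insulin and the IGFs bind related receptor tyrosine kinases, which phosphorylate the docking proteins IRS1 and IRS2. These recruit PI3K, which activates the kinase AKT. AKT in turn keeps FOXO transcription factors out of the nucleus and, through the TSC complex, releases mTOR, a kinase that promotes protein synthesis and growth. The binding proteins are secreted, hold IGFs in the extracellular space and are themselves cut by proteases. In the perinatal heart the pathway is known for driving growth of cardiomyocytes and for adjusting their fuel use to nutrient supply.

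The libraries held between 16721055 and 21646378 counts on genes. Charme itself was at 39.3, 10.4 and 13.96 CPM (counts scaled to library size) in Charme WT pools 1 to 3 and at 4.04 and 3.54 CPM in Charme KO pools 1 and 2, lower in both. Cardiomyocyte markers were abundant, with 5 of 5 tested and summed levels of 3519 to 4269 FPKM (fragments scaled to exon length in kilobases and to library size) in Charme WT and 2738 and 3293 FPKM in Charme KO. The Charme KO pools also stood apart from the rest in other respects. Mitochondrial genes took 21.1% of all counts of Charme KO pool 1, where the other pools had 9.68% to 11.1%. Salivary gland markers took 2.55% of the counts of Charme KO pool 2 and 0.0275% of pool 1, and in Charme WT they summed to at most 0.121 FPKM, with Bpifa2, Smgc and Prol1 at 0. Adipose markers had 5207 counts in Charme KO pool 2, 130 in pool 1 and 3 to 27 in Charme WT, where Lep was at 0.

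In these bulk pools, fewer cells of a type and less RNA per cell cannot be told apart. Nothing in the labels says that the pools of a genotype came from separate litters, so the p-values measure the spread between these pools.

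The promoters of the 5 binding protein genes are shown because these genes covered the widest span of levels. Igfbp3 among them was also the one that passed the test described below. Each sequence is the 250 bases before the RefSeq start of the gene (GRCm38.p6), on the strand of the gene. Capitals mark matches, on either strand, to 5 short motifs, namely GTAAACA for the core of FOXO sites, TATAAA for the TATA box, CCAAT for the CCAAT box, GGGCGG for the GC box and CACGTG for the E-box, and no match overlapped another.
Igfbp3: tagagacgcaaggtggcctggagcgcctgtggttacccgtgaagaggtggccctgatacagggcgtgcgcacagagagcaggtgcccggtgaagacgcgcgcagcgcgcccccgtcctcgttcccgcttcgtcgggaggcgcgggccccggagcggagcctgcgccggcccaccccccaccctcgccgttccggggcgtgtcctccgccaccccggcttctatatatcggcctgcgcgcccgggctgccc
Igfbp4: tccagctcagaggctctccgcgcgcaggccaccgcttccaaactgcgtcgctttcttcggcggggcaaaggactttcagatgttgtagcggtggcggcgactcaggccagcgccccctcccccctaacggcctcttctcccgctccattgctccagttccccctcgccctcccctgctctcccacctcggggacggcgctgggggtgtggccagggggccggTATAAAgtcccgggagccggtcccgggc
Igfbp5: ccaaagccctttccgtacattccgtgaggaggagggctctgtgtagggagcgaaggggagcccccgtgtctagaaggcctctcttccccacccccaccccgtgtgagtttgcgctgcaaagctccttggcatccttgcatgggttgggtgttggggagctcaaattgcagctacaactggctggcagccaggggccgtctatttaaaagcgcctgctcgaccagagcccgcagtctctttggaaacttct
Igfbp6: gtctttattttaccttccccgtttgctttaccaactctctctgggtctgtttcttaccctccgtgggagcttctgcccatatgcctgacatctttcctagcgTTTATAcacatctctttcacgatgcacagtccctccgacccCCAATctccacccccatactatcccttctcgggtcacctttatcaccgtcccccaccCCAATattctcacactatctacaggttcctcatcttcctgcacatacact
Igfbp7: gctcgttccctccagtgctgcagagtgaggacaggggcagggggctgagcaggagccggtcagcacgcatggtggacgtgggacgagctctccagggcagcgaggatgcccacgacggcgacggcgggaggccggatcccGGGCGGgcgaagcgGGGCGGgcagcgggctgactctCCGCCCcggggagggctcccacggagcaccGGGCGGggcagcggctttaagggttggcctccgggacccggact

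The Igfbp3 window lies at chr11:7213924-7214173, Igfbp4 at chr11:99040994-99041243, Igfbp5 at chr1:72874866-72875115, Igfbp6 at chr15:102143936-102144185 and Igfbp7 at chr5:77408046-77408295. The windows of Igfbp4 and Igfbp6 lie on the plus strand and the others on the minus strand. RefSeq starts can differ from those of the GENCODE annotation. The Igfbp6 window ended at 102144185, before the GENCODE start at 102144362. The Igfbp5 window reached into its gene, whose GENCODE start is at 72874884. Igfbp3 and Igfbp7, with 73.2% and 74.0% G or C and 32 and 26 CpG dinucleotides, differed from Igfbp6, with 49.6% and 7. Over all 32851 windows the medians were 52.4% and 6. The Igfbp4 window held a TATAAA that began 28 bases before the start, where a TATA box usually lies, and Igfbp6 held one on the opposite strand, against 12.4% of all windows. Igfbp6 also held 2 CCAAT boxes (33.8% of all windows held at least 1) and Igfbp7 held 4 GC boxes (32.7%). The windows of Igfbp3 and Igfbp5 held no exact match to the 5 motifs, and near variants of these letters were not searched. A window was given for 9 of the 10 genes, and none of the 9 held GTAAACA, found in 3.17% of all windows. Irs1 and Irs2 each held 1 CACGTG, which was in 6.02% of all windows.

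Igfbp3 was higher in both Charme KO pools, and it was the 1 gene of the 10 that passed the test. Its adjusted p of 0.0958 by edgeR was close to the threshold. It was no longer called without any 1 Charme WT pool, and the part of other tissues in its level was not tested. Across the whole transcriptome, 2.05% of tested genes were called (edgeR's quasi-likelihood test, adjusted p under 0.1 and a mean of at least 1 FPKM in a genotype), 1.53% higher and 0.524% lower in Charme KO. Igf1r and Insr, the receptors, lay below every Charme WT pool in both Charme KO pools, and Igfbp6 lay higher in both, but none of the 3 passed the test. For comparison, in 17.8% of all tested genes both Charme KO pools exceeded every Charme WT pool and in 18.2% both lay below, so 2 of 10 in each direction was near the share of all genes. The other 6 genes overlapped between genotypes. The median log2 fold change of the 10 was -0.15, with 7 lower and 3 higher, beside 0.02 over all tested genes.

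Per length, the binding proteins spanned from the highest to near the lowest levels of the 10. In Charme WT the mean FPKM fell in the order Igfbp7 (117.7), Igfbp5 (88.4), Igfbp4 (50.6), Igfbp3 (11.0), Insr (8.95), Irs1 (5.79), Igfbp6 (4.70), Igf1 (4.64), Igf1r (4.21) and Irs2 (3.68). The first 3 were each apart from the next in every Charme WT pool, as was Insr from Irs1. The ranges of Igfbp3 and Insr overlapped, although Igfbp3 was the higher in every pool. Each gene from Irs1 down to Irs2 overlapped its next neighbour, so the order of next neighbours was within the spread between pools. Irs1, at 5.53 FPKM or more in Charme WT, still lay above the highest Charme WT values of Igf1r (4.77) and Irs2 (5.22). In Charme KO the ranges of Igfbp7 and Igfbp5 overlapped, although Igfbp7 was the higher in both pools. Igfbp6, at 12.1 and 15.2 FPKM, lay above Insr, Irs1, Igf1, Igf1r and Irs2 in both Charme KO pools.

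**Figure D1:**
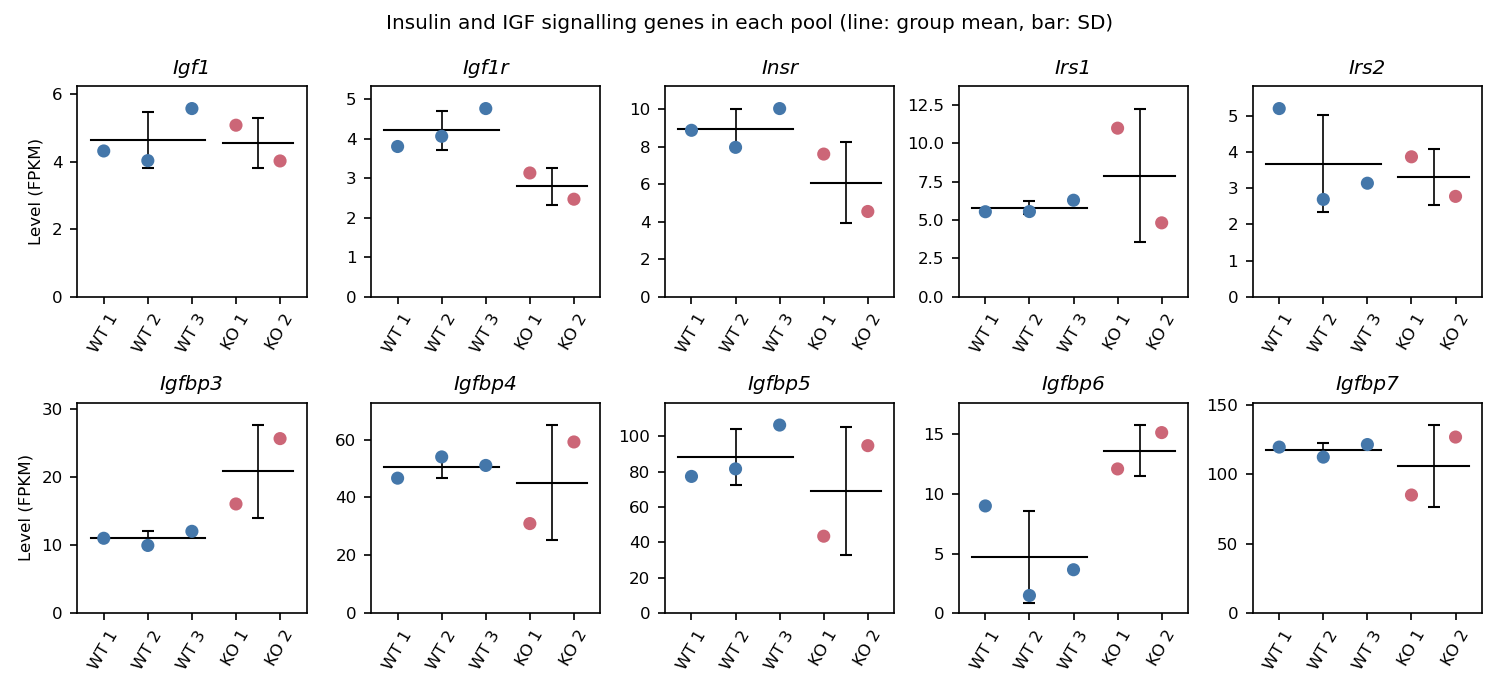
Level of each of the 10 insulin and IGF signalling genes in FPKM (linear axes from 0, 1 point per pool, lines at the means of 3 Charme WT and 2 Charme KO pools, error bars 1 SD). Igfbp3 and Igfbp6 lie higher in both Charme KO pools, Igf1r and Insr lie lower in both, and the other 6 overlap.

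Igf1 (ENSMUSG00000020053, chr10:87858265-87937042, plus strand, all member positions from GENCODE M21 on GRCm38) encodes the ligand that growth hormone induces in liver and that many tissues make locally. It was at 4.32, 4.03 and 5.57 FPKM in Charme WT pools 1 to 3 and at 5.08 and 4.02 FPKM in Charme KO pools 1 and 2. The pools of both genotypes covered the same range, with means of 4.64 ± 0.821 (SD, n = 3) and 4.55 ± 0.749 FPKM (SD, n = 2). For Igf1 edgeR fitted a log2 fold change of -0.03 ± 0.21 (SE), with a 95% interval from -0.50 to 0.44 and an adjusted p of 0.949 (edgeR). With an offset for gene length and GC content the log2 fold change was -0.35 (adjusted p = 0.286). Igf2, the fetal ligand, was 76.8 to 108.5 times as abundant per length as Igf1 in Charme WT pools and 70.4 and 105.2 times in Charme KO pools.

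Igf1r (ENSMUSG00000005533, chr7:67952827-68233668, plus strand), the main receptor for both IGFs, was at 3.81, 4.07 and 4.77 FPKM in Charme WT and at 3.13 and 2.47 FPKM in Charme KO. Both Charme KO pools were below every Charme WT pool. The means were 4.21 ± 0.498 (SD, n = 3) and 2.80 ± 0.471 FPKM (SD, n = 2), which gave a log2 fold change of -0.59 ± 0.19 (SE; 95% interval -1.03 to -0.15). The unadjusted p of 0.013 became 0.178 after adjustment over all genes in edgeR, which did not pass. DESeq2, which called 7.54% of all tested genes, gave an adjusted p of 0.0950 and called it. The likelihood ratio test of edgeR, which called 6.27%, gave 0.118 and did not.

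Insr (ENSMUSG00000005534, chr8:3122061-3279617, minus strand), the insulin receptor, was at 8.86, 7.96 and 10.02 FPKM in Charme WT and at 7.60 and 4.54 FPKM in Charme KO. Again both Charme KO pools were below every Charme WT pool, but pool 1 only narrowly so. The means were 8.95 ± 1.04 (SD, n = 3) and 6.07 ± 2.16 FPKM (SD, n = 2), and edgeR fitted a log2 fold change of -0.56 ± 0.23 (SE; 95% interval -1.08 to -0.04; adjusted p = 0.247 by edgeR). The ratio of the receptors overlapped between genotypes. Insr was at 2.33, 1.96 and 2.10 times the FPKM of Igf1r in Charme WT and at 2.42 and 1.84 times in Charme KO, with means of 2.13 ± 0.188 and 2.13 ± 0.414 (SD).

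Irs1 (ENSMUSG00000055980, chr1:82233101-82291416, minus strand), which docks PI3K to both receptors, differed most between the Charme KO pools. It was at 5.53, 5.55 and 6.28 FPKM in Charme WT, at 11.0 FPKM in Charme KO pool 1 and at 4.81 FPKM in pool 2. One pool was thus above and the other below all of Charme WT, and the pooled log2 fold change of 0.45 ± 0.29 (SE; 95% interval -0.21 to 1.10; adjusted p = 0.429 by edgeR) stood for neither. Irs2 (ENSMUSG00000038894, chr8:10984681-11008458, minus strand), the second docking protein, was at 5.22, 2.69 and 3.14 FPKM in Charme WT and at 3.88 and 2.78 FPKM in Charme KO. These values overlapped, with a log2 fold change of -0.15 ± 0.30 (SE; 95% interval -0.82 to 0.52; adjusted p = 0.807 by edgeR). Irs1 was at 1.06 to 2.06 times the FPKM of Irs2 in Charme WT and at 2.83 and 1.73 times in Charme KO.

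Igfbp3 (ENSMUSG00000020427, chr11:7206086-7213923, minus strand) encodes the main carrier of IGFs in adult blood, which also holds IGFs near the cells that secrete it. Its promoter window, printed above, was CpG-rich, as were those of Igfbp7 and Igfbp4. The counts were 709, 550 and 744 for Charme WT and 709 and 1792 for Charme KO, which per length and depth were 11.0, 9.95 and 12.0 FPKM and 16.0 and 25.7 FPKM. Both Charme KO pools exceeded every Charme WT pool, pool 2 by more than pool 1. Adipose, skeletal muscle and salivary gland markers were likewise highest in Charme KO pool 2, then in pool 1. Liver markers were not, with sums of 1.86 to 2.92 FPKM in Charme WT, 1.02 in Charme KO pool 1 and 2.15 in pool 2. Macrophage markers, with 1 of 5 tested called (Mrc1, higher), summed to 25.1 to 42.8, 32.4 and 55.2 FPKM. The epicardial and mesothelial markers, described with Igfbp6 below, summed to 5.46 to 23.6, 34.3 and 31.4 FPKM, the opposite order of Charme KO pools. Adipose markers, all 3 of those tested called, summed to at most 0.614 FPKM in Charme WT, 5.62 in Charme KO pool 1 and 156.5 in pool 2. Skeletal muscle markers, with 2 of 3 tested called (Myh8 and Mylpf) and Myod1 at 0 in Charme WT, summed to 1.43 to 2.89, 6.43 and 15.9 FPKM. The 5 salivary gland markers found summed to 0.0653 to 0.121, 146.2 and 11219 FPKM, and the part of these tissues in the Igfbp3 values was not tested. The means were 11.0 ± 1.04 (SD, n = 3) and 20.9 ± 6.80 FPKM (SD, n = 2), and edgeR fitted a log2 fold change of 0.93 ± 0.22 (SE; 95% interval 0.43 to 1.42; adjusted p = 0.0958 by edgeR). That adjusted p was close to the threshold of 0.1. The likelihood ratio test and DESeq2 gave 0.0108 and 0.0101. Without Charme WT pool 1, 2 or 3 the adjusted p was 0.253, 0.260 and 0.362, and the gene was no longer called.

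Igfbp6 (ENSMUSG00000023046, chr15:102144362-102149511, plus strand), a binding protein that prefers IGF2, was at 9.00, 1.48 and 3.64 FPKM in Charme WT, from 206, 29 and 80 counts. In Charme KO it was at 12.1 and 15.2 FPKM, from 190 and 376 counts. Both Charme KO pools exceeded every Charme WT pool, but the Charme WT pools themselves spread over more than the distance between the genotypes' nearest pools. The log2 fold change of 1.52 ± 0.53 (SE; 95% interval 0.35 to 2.70) had an adjusted p of 0.190 by edgeR, while the likelihood ratio test gave 0.0970 and called it and DESeq2 gave 0.326. Without Charme WT pool 1, the highest of the 3, the log2 fold change was 2.41 (adjusted p = 0.127), and without pool 2, the lowest, it was 1.11. Of the markers of epicardium and mesothelium, the outer covering of the heart, Upk3b, Upk1b and Msln lay higher in both Charme KO pools. The 4 markers, with Wt1, summed to 23.6, 5.46 and 11.6 FPKM in Charme WT and 34.3 and 31.4 FPKM in Charme KO. That sum had the same order of Charme WT pools as Igfbp6, but the opposite order of Charme KO pools. Wt1 alone did not follow the Charme WT order of Igfbp6, at 1.65, 1.85 and 2.09 FPKM in Charme WT and 2.39 and 1.61 FPKM in Charme KO. None of the 4 was called and none was at 0. Their part in the Igfbp6 values was not tested.

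**Figure D2:**
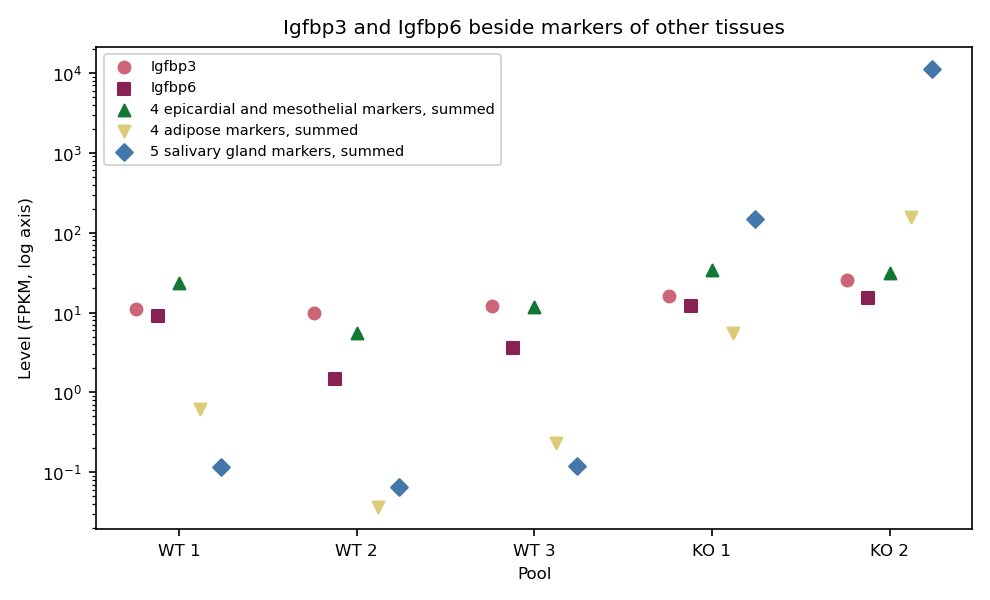
Level of Igfbp3 and Igfbp6 and summed levels of epicardial and mesothelial, adipose and salivary gland markers in each pool (FPKM, log axis, 3 Charme WT and 2 Charme KO pools). The epicardial and mesothelial sum follows the order of Igfbp6 over the Charme WT pools but not over the Charme KO pools. Salivary gland and adipose markers are highest in Charme KO pool 2.

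Igfbp4 (ENSMUSG00000017493, chr11:99041244-99054392, plus strand) encodes an inhibitory binding protein that the protease PAPPA cuts. It was at 46.7, 54.0 and 51.1 FPKM in Charme WT, at 31.0 FPKM in Charme KO pool 1 and at 59.2 FPKM in pool 2. Igfbp5 (ENSMUSG00000026185, chr1:72857932-72874884, minus strand), which also binds extracellular matrix, was at 77.3, 81.6 and 106 FPKM in Charme WT and at 43.5 and 94.7 FPKM in Charme KO pools 1 and 2. Igfbp7 (ENSMUSG00000036256, chr5:77349240-77408041, minus strand), a low-affinity relative made by vascular cells, was at 120, 112 and 121 FPKM in Charme WT and at 85.0 and 127 FPKM in Charme KO. For all 3 genes Charme KO pool 1 lay below every Charme WT pool and pool 2 lay within or above their range. The log2 fold changes were -0.17 ± 0.25, -0.36 ± 0.31 and -0.15 ± 0.20 (SE) for Igfbp4, Igfbp5 and Igfbp7, with adjusted p of 0.746, 0.548 and 0.701 by edgeR. The intervals ran from -0.73 to 0.40 for Igfbp4, from -1.04 to 0.33 for Igfbp5 and from -0.60 to 0.29 for Igfbp7. Of 16 endothelial, fibroblast, and smooth muscle and pericyte markers, 8 lay below every Charme WT pool in Charme KO pool 1, among them Cdh5, Tie1, Pdgfrb and Col1a1, and 4 lay above, namely Pecam1, Emcn, Dcn and Pdgfra. In Charme KO pool 2 the numbers were 4 and 4. The share of all tested genes so placed in a single pool was not counted, so these numbers have no background to be read against. The 5 endothelial markers summed to 150.8 to 198.4 FPKM in Charme WT, 132.8 in Charme KO pool 1 and 163.7 in pool 2, and the 6 fibroblast markers to 264.7 to 307.1, 256.3 and 359.1 FPKM. The 5 smooth muscle and pericyte markers summed to 334.4 to 792.5 FPKM in Charme WT, 515.9 in Charme KO pool 1 and 633.0 in pool 2. None of these 16 markers was at 0 or called, and their part in the binding protein values was not tested.

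**Figure D3:**
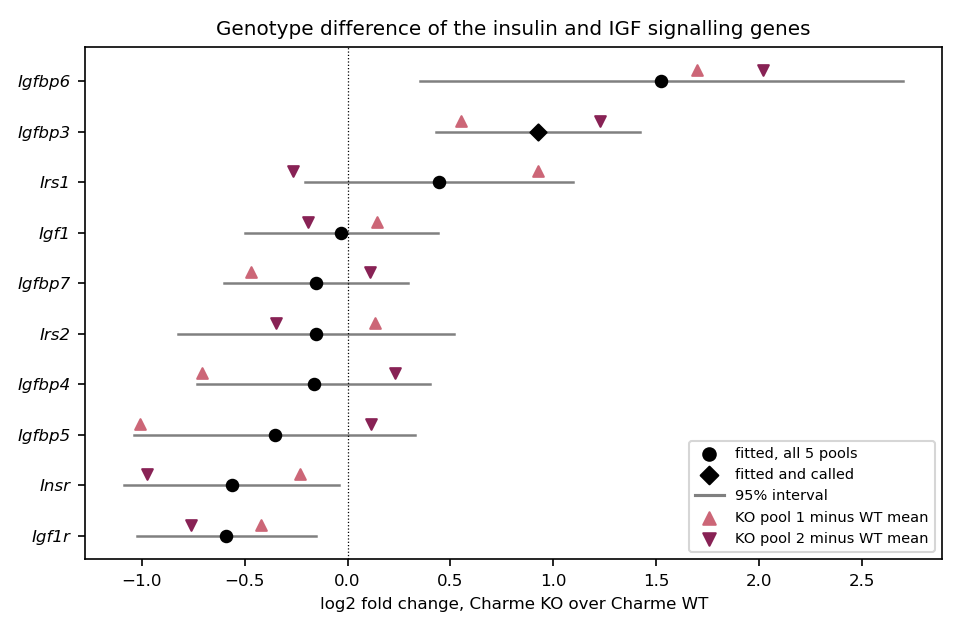
Log2 fold change of Charme KO over Charme WT for the 10 genes (points with 95% intervals from the edgeR fit) and the difference of each Charme KO pool from the Charme WT mean on the log2 CPM scale (triangles). The intervals of Igfbp3 (called, diamond) and Igfbp6 lie above 0 and those of Insr and Igf1r below it, and the pools differ most for Irs1, Igfbp5 and Igfbp4.

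Within the summed binding protein transcripts, the shares of the less abundant Igfbp3 and Igfbp6 did not overlap between genotypes and those of the other 3 did. Igfbp3 made up 4.17%, 3.84% and 4.08% of the summed FPKM of Igfbp3 to Igfbp7 in Charme WT, against 8.55% and 7.98% in Charme KO. As a share of this sum the Charme KO pools were close to each other, although their Igfbp3 levels and their sums (187.6 and 321.5 FPKM, against 259.3 to 294.5 in Charme WT) were not. Igfbp6 made up 3.41%, 0.569% and 1.24% in Charme WT and 6.45% and 4.71% in Charme KO. The major members overlapped for Igfbp7, at 41.2% to 45.4% in Charme WT and 45.3% and 39.4% in Charme KO, and for Igfbp4, at 17.3% to 20.8% against 16.5% and 18.4%. Igfbp5 was at 29.3% to 36.1% in Charme WT and at 23.2% and 29.5% in Charme KO, which also overlapped. These shares were not tested. An exact permutation test of 3 pools against 2 cannot give a two-sided p below 0.1.

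**Figure D4:**
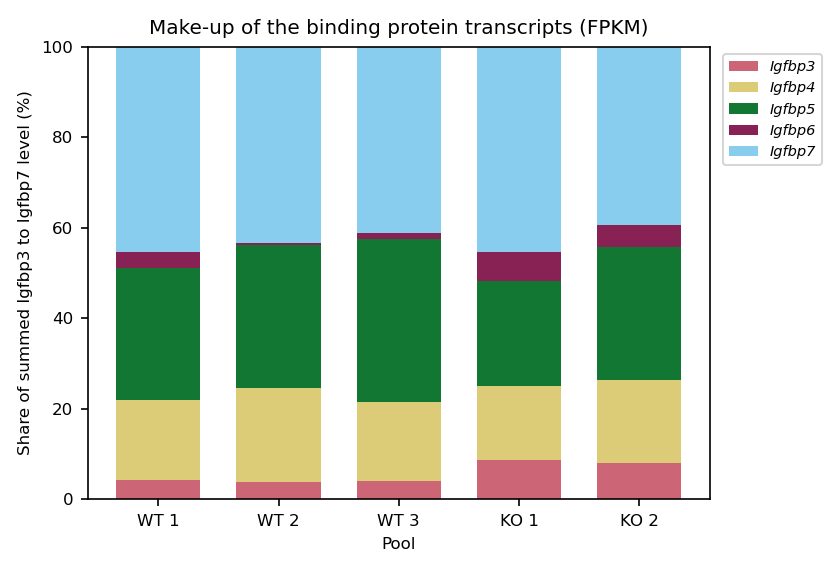
Share of each binding protein gene in the summed FPKM of Igfbp3 to Igfbp7 (percent of the sum, 1 stacked bar per pool, bars from 0 to 100). The Igfbp3 share is 3.84% to 4.17% in Charme WT and 7.98% and 8.55% in Charme KO.

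Set against Charme WT one at a time, the Charme KO pools gave unlike values for several of the 10 genes. On the log2 CPM scale, Charme KO pool 1 differed from the Charme WT mean by 0.93 for Irs1, -1.01 for Igfbp5, -0.71 for Igfbp4 and -0.47 for Igfbp7. Charme KO pool 2 differed by -0.26, 0.11, 0.23 and 0.11 for the same genes. For Igf1r and Insr the differences were -0.42 and -0.23 in pool 1 and -0.76 and -0.97 in pool 2, and for Igfbp3 they were 0.55 and 1.23. In an edgeR fit without Charme KO pool 2, in which the lone pool was assumed to vary like the others, 31.7% of all tested genes were called, and 5 of the 10 genes: Irs1 and Igfbp3 higher, and Igfbp4, Igfbp5 and Igfbp7 lower. In the fit without Charme KO pool 1, 4.33% of all tested genes were called, and 3 of the 10: Igfbp3 higher, and Igf1r and Insr lower. With 1 pool on each side the difference between the Charme KO pools could not be tested. Leaving out Charme WT pool 1, 2 or 3 left 0.0137%, 1.27% and 0% of all tested genes called and none of the 10. An unadjusted p under 0.05 in edgeR was then reached by 3, 4 and 1 of the 10. Over all tested genes it was reached by 2190 of 14597, 1692 of 14751 and 1315 of 14715.

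The remainder of the pathway was described by 6 lists of 86 genes, of which 80 were tested. These lists too were chosen with earlier results of these data known, so the counts below were not independent of those results. Of the 80, 2 were called, Pdk4 and Inppl1, both lower in Charme KO, 58 had a negative log2 fold change, as had 48.2% of all tested genes. In both Charme KO pools 29 lay below every Charme WT pool (18.2% of all tested genes) and 8 above (17.8%). An unadjusted p under 0.05, given below for the lists with no call, was reached by 18.6% of all tested genes.

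Among the other ligands, receptors, binding proteins and their regulators, 12 of 16 genes were tested, none was called (2 had an unadjusted p under 0.05 in edgeR) and the median log2 fold change was -0.09. Igf2 was at 373.2, 437.1 and 428.2 FPKM in Charme WT and at 357.6 and 422.8 FPKM in Charme KO, with a log2 fold change of -0.08 ± 0.23 (SE; adjusted p = 0.872 by edgeR). Igf2r, the receptor that takes up and degrades IGF2, was at 77.5, 62.2 and 76.9 FPKM in Charme WT and at 71.0 and 47.5 FPKM in Charme KO (-0.29 ± 0.23, SE; adjusted p = 0.512 by edgeR). The pools overlapped for both. The liver-type binding protein Igfbp1 and the insulin gene Ins1 had no count in any pool, and Ins2 had 3 to 7 counts, so insulin transcripts were at or near 0 at this depth.

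Among 13 adaptors and brakes of the receptors, 11 were tested and none was called, at a median of -0.26, while 4 had an unadjusted p under 0.05 in edgeR and 6 lay below Charme WT in both Charme KO pools. Grb10, an imprinted adaptor that inhibits both receptors, was at 90.3, 82.5 and 93.6 FPKM in Charme WT, 136 in Charme KO pool 1 and 69.4 in pool 2, on either side of Charme WT like Irs1. Its log2 fold change was 0.21 ± 0.27 (SE; adjusted p = 0.699 by edgeR). Grb2, which links the receptors to the RAS and MAP kinase branch, was at 50.6, 51.9 and 49.5 FPKM in Charme WT and at 34.8 and 37.1 FPKM in Charme KO. Its fold change of -0.49 ± 0.16 (SE) stood apart from a narrow Charme WT range but had an adjusted p of 0.178 by edgeR.

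In the PI3K and AKT relay, 18 of 18 genes were tested and 1 was called, with a median of -0.10. Inppl1 (SHIP2), a phosphatase that removes the lipid signal made by PI3K, was at 23.0, 24.8 and 24.5 FPKM in Charme WT and fell to 13.6 and 15.1 FPKM in Charme KO. The log2 fold change was -0.75 ± 0.17 (SE; 95% interval -1.12 to -0.38; adjusted p = 0.0800 by edgeR). With the replicate block it was not called (adjusted p = 0.131), nor with an offset for gene length and GC content (-0.45, adjusted p = 0.197), nor without any 1 Charme WT pool. The kinases themselves did not pass the test. Akt1 was at 107 to 127 FPKM in Charme WT and at 81.3 and 96.2 FPKM in Charme KO (-0.36 ± 0.19, SE; adjusted p = 0.330 by edgeR), and Gsk3a at 38.6 to 42.0 and at 26.7 and 38.8 FPKM (-0.31 ± 0.20, SE; adjusted p = 0.414). With the length and GC offset these were -0.07 and -0.14, and leaving out Charme KO pool 1 moved Gsk3a to -0.07. Leaving out pool 2 instead moved Gsk3a to -0.61. Akt1 was -0.24 without Charme KO pool 1 and -0.49 without pool 2.

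In the TSC and mTOR branch, 18 of 18 genes were tested and none was called, at a median of -0.09, while 4 had an unadjusted p under 0.05 in edgeR. Its most abundant member, Rps6, a protein of the small ribosomal subunit that S6 kinase phosphorylates, was at 233.0, 196.6 and 197.9 FPKM in Charme WT and at 367.9 and 297.5 FPKM in Charme KO (0.67 ± 0.19, SE; adjusted p = 0.137 by edgeR). Eif4ebp1, the translation repressor that mTOR inactivates, was at 89.6 to 102.9 FPKM in Charme WT and at 123.4 and 101.7 FPKM in Charme KO (0.22 ± 0.18, SE; adjusted p = 0.508), and overlapped. Of the 18 genes, 4 lay above every Charme WT pool in both Charme KO pools, Rps6, Rheb, Rps6kb1 and Eif4e, 2 lay below, Tsc1 and Tsc2, and 12 overlapped.

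The FOXO factors and genes known as their targets had the lowest median of the 6 lists, -0.49. Of 15 genes, all tested, 13 had a negative log2 fold change, beside 48.2% of all tested genes, and 11 lay below every Charme WT pool in both Charme KO pools, where 18.2% of all tested genes did so, and 1 was called. Pdk4, which inhibits pyruvate dehydrogenase and so spares glucose, was at 95.8, 81.2 and 109.5 FPKM in Charme WT and fell to 36.2 and 35.8 FPKM in Charme KO. The Charme KO pools were nearly equal, and the log2 fold change was -1.41 ± 0.19 (SE; 95% interval -1.84 to -0.97; adjusted p = 0.0336 by edgeR). Without Charme WT pool 1 or 3 the adjusted p was 0.127 and 0.211. Trim63 (MuRF1), a ubiquitin ligase of the sarcomere, was at 106.4, 92.8 and 92.5 FPKM in Charme WT and at 84.3 and 60.7 FPKM in Charme KO (-0.42 ± 0.20, SE; adjusted p = 0.282 by edgeR). Chosen after their values were seen, the factors Foxo1, Foxo3, Foxo4 and Foxo6 all lay below Charme WT in both Charme KO pools (-0.49, -0.51, -0.61 and -0.92), none called. Bnip3, a mitophagy receptor, went the other way, at 26.4 to 43.0 FPKM in Charme WT and 108.7 and 57.4 FPKM in Charme KO (1.16 ± 0.29, SE; adjusted p = 0.104 by edgeR).

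In the growth hormone axis, which controls Igf1 in liver, 6 of 6 genes were tested and none was called, at a median of -0.27, while 3 had an unadjusted p under 0.05 in edgeR. Over all 5 pools its most abundant members were the feedback inhibitors Cish and Socs2, while in Charme WT alone Stat5b, a transcription factor of this axis, and the receptor Ghr, at means of 11.1 and 9.72 FPKM, were above Socs2, at 9.71. Cish was at 19.8, 22.4 and 19.6 FPKM in Charme WT and at 11.2 and 18.0 FPKM in Charme KO (-0.49 ± 0.22, SE; adjusted p = 0.264 by edgeR), and Socs2 at 8.88 to 10.4 and at 9.11 and 10.3 FPKM (-0.00 ± 0.17, SE; adjusted p = 0.999). Stat5b, chosen after its values were seen, was at 9.70, 11.0 and 12.6 FPKM in Charme WT and at 7.07 and 6.98 FPKM in Charme KO (-0.66 ± 0.19, SE; adjusted p = 0.142 by edgeR).

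**Figure D5:**
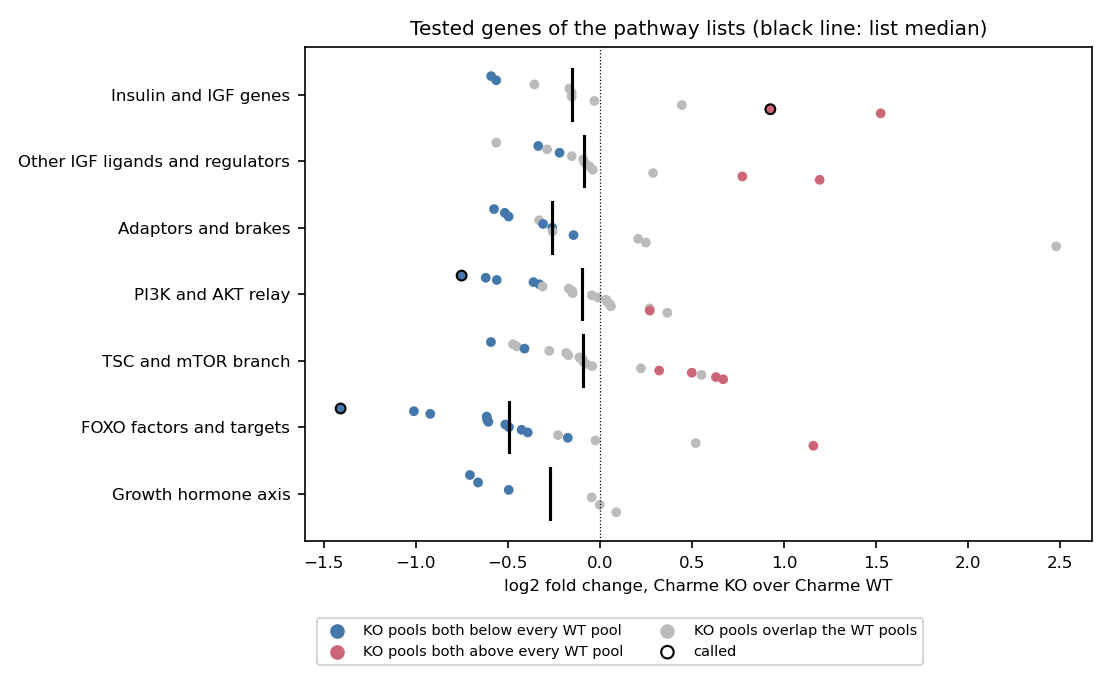
Log2 fold change of Charme KO over Charme WT for every tested gene of the 10 insulin and IGF genes and the 6 pathway lists (1 point per gene, coloured by whether both Charme KO pools lie beyond every Charme WT pool, ringed where called, black bars at list medians). The FOXO list has the lowest median, -0.49, with Pdk4 at -1.41.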

How the data were processed

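Poly(A)+ RNA of 5 pools of PN2 hearts was sequenced with a stranded library kit as paired-end reads. The authors trimmed reads with Cutadapt and Trimmomatic, aligned them to GRCm38 with STAR and deposited raw gene counts on an Ensembl annotation. Tool versions for this series are not given in the sources used here. A deposited FPKM table was not used because of its decimal commas.

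A gene entered the tests with 10 counts or more in 2 or more pools. Counts were scaled by TMM and tested over all genes by genotype with edgeR 4.0.16 (quasi-likelihood, R 4.3.3), with Benjamini-Hochberg adjustment. Calls needed an adjusted p under 0.1 and a mean of at least 1 FPKM in a genotype. FPKM used TMM-scaled library sizes and GENCODE M21 exon lengths, for 49411 matched genes. Another 23 tested genes without a length were given 1000 bases. Standard errors are the fold change over the root of F. Fold changes per pool used a prior count of 2. The study's methods name the likelihood ratio test, which was an alternative here, as were DESeq2 1.42.0 and the others in the closing section. The script was tested on simulated counts. Depth per pool is given with the results, and reads carry no molecular identifiers.

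All 10 members are named, and in each pathway list the 2 most abundant genes and every called gene. The members and lists were chosen with earlier results of these data known. Of 145 symbols listed, 1 (Muc10) was not matched. Igf1, Insr, Irs1, Irs2 and Igfbp7 overlap genes on the opposite strand. The library kit and the counting column were stranded.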

Additional observations from a re-analysis of the deposited data

How the results depend on the processing

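The count of 1 called gene among the 10 became 2 with the likelihood ratio test (Igfbp3 and Igfbp6) and with DESeq2 (Igfbp3 and Igf1r). It became 0 with the legacy and robust quasi-likelihood forms, without the low-count filter, at an adjusted p under 0.05 and with the replicate block, with or without an offset for length and GC content. Under these fits at the threshold of 0.1, Igfbp3 kept a log2 fold change of 0.90 to 0.99 and had an adjusted p of 0.106 (legacy), 0.107 (robust), 0.122 (no filter), 0.128 (block) and 0.272 (block with offset). Leaving out 1 pool gave 0 to 5 called genes. The count of 2 called pathway genes became 7 with the likelihood ratio test, 12 with DESeq2, 4 with the offset, and 1 at an adjusted p under 0.05 and with block and offset, and ranged from 0 to 30 with 1 pool left out. Counts of all called genes ran from 27 (block with offset) to 1122 (DESeq2) with all pools, beside 305. With 1 pool left out, the highest counts of both gene sets came from the fit without Charme KO pool 2. That fit rested on 1 Charme KO pool and also called the largest share of all tested genes, given above. The lowest came from fits without 1 Charme WT pool. Without Charme WT pool 1, 2 or 3, 2, 187 and 0 of all tested genes were called. The cause of these shifts was not tested.

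Some directions turned, on the log2 scale. Igf1 went to 0.0002 with upper-quartile scaling and 0.12 with the block, and spanned -0.21 to 0.12 with 1 pool left out. Irs2 went to 0.16 with the offset and 0.0695 with block and offset (-0.41 to 0.19 with 1 pool left out). Without Charme KO pool 1, Irs1 went to -0.27, Igfbp4 to 0.23, Igfbp5 to 0.10, Igfbp7 to 0.11 and Grb10 to -0.35. Without Charme KO pool 2, Irs1 was 0.92, Igfbp4 -0.72, Igfbp5 -1.03, Igfbp7 -0.48 and Grb10 0.60. Igf2 went to 0.17 with the offset and 0.18 with block and offset (-0.21 to 0.0361 with 1 pool left out), and Eif4ebp1 to -0.0225 with block and offset. Socs2, at about 0, went to 0.0015 (DESeq2), 0.0013 (RLE), 0.0312 (upper quartile), 5e-04 (filterByExpr) and 0.0115 (block), and spanned -0.1001 to 0.0858. The offset also moved Igf1 to -0.35, Igf2r from -0.29 to -0.10, Igfbp4 from -0.17 to -0.0357 and Eif4ebp1 from 0.22 to 0.012. Without Charme KO pool 1 and without pool 2, Insr was -0.98 and -0.24, Trim63 -0.68 and -0.21, Cish -0.19 and -0.88, and Igf2r -0.60 and -0.0319. Igf1r stayed between -0.62 and -0.40 with all pools.

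The labels do not say that replicate numbers pair the pools. Deviations of same-numbered pools correlated at 0.137 and 0.0778 over genes, and those of Charme WT pool 3 and Charme KO pool 2 at 0.0587. With 2 Charme KO pools, their deviations from their mean are exact opposites, so these values cannot show whether pools were paired. The replicate block moved the count of all calls from 305 to 210. The depth limits Igfbp6 most, with 29 counts in Charme WT pool 2.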

Other observations

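Sh2b2, an adaptor that carries the insulin receptor signal to glucose uptake in fat cells, had the highest log2 fold change of the 80 tested pathway genes, 2.48 ± 0.76 (SE), and was chosen after its values were seen. It was at 0.287, 0.262 and 0.215 FPKM in Charme WT and 0.170 FPKM in Charme KO pool 1, and at 2.58 FPKM in Charme KO pool 2, so its fold change came from 1 pool and had an adjusted p of 0.158 by edgeR. Adipoq, an adipose marker, was at 0 to 0.352 FPKM in Charme WT, 2.10 in Charme KO pool 1 and 58.9 in pool 2. Irs3, a docking protein gene too low to be tested, was counted 3, 1 and 1 times in Charme WT and 7 and 33 times in Charme KO. Among the proteases of binding proteins and their inhibitors, Pappa2 and Stc1 lay above every Charme WT pool in both Charme KO pools (1.19 and 0.77 on the log2 scale; adjusted p of 0.226 and 0.247 by edgeR), Stc2 lay below (-0.33; adjusted p = 0.472) and Pappa overlapped (-0.04; adjusted p = 0.970). Pappa2 was at no more than 0.227 FPKM in any pool.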
